A study of Homo sapiens with 32 samples.

Results

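DNHD1 (dynein heavy chain domain 1) is 1 of the 35238 genes in the deposited expression table, and its row was read in all 32 libraries. It was chosen for its rise with SM08502 in Ishikawa cells. The Ishikawa SM08502 and vehicle libraries therefore chose it, and comparisons that use them are given below as values with no test. DNHD1 is a large relative of the dynein heavy chains, the motor subunits that walk along microtubules. Axonemal dyneins beat cilia and sperm flagella and cytoplasmic dyneins carry cargo inside cells. DNHD1 is known mainly from the sperm flagellum, where its loss causes male infertility, and has no well-established role in endometrial epithelium.

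The libraries came from 4 human endometrial cancer lines under 4 treatments, with 2 replicates in each group. Ishikawa is CTNNB1-wildtype, CTNNB1 being the gene of beta-catenin in the Wnt pathway, and Ishikawa-S33Y, SNGM and HEC265 are CTNNB1-mutated. Cells received vehicle (0.1% DMSO), paclitaxel, SM08502 or both drugs (the combination) for 24 h, at a dose set for each line by its own viability response. Paclitaxel was given at 11 nM in Ishikawa, 6 nM in Ishikawa-S33Y, 11.7 nM in SNGM and 5.6 nM in HEC265. SM08502 was given at 80, 85, 350.7 and 149 nM in the same order. Paclitaxel is a taxane that stabilises microtubules. SM08502 inhibits the CDC-like kinases, which phosphorylate the SR proteins that guide splicing. Each line had its own doses, and Ishikawa libraries were made from 350 ng of RNA against 500 ng elsewhere, so dose, input and line cannot be told apart. The labels say that cells were plated in duplicate and name no separate experiments, so p-values measure the spread between these samples, which may be technical.

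Between 13.03 M and 34.1 M reads (M, 1000000) were counted in each of 30 libraries. Replicate 2 of the combination was shallower, with 2.99 M reads for Ishikawa-S33Y and 1.61 M for SNGM. All 5 epithelial markers had a median above 1 CPM (reads per 1000000 counted) in every line. Of 5 Müllerian and endometrial markers, 5 were above that level in untreated and paclitaxel-treated Ishikawa and Ishikawa-S33Y, but only 2 in SNGM and in HEC265. Some Ishikawa replicates differed in a score of transcript length, which subtracts the mean log2(CPM + 1) of 39 ribosomal protein genes from that of 30 genes with long transcripts. The score was -1.78 and -3.22 with paclitaxel and -2.46 and -3.16 with SM08502, against -2.89 and -2.50 with vehicle and -2.91 and -3.03 with the combination. DNHD1 itself is a long gene, and the part of this score in its Ishikawa values with SM08502 and with paclitaxel against vehicle was not tested. Over the alternatives run, which include this score as a covariate, those log2 differences ranged from 1.74 to 2.19 with SM08502. With paclitaxel they ranged from 0.47 to 0.88. With the score as a covariate the Ishikawa difference between the combination and paclitaxel was 1.46 on the log2 scale (limma adjusted p 0.00140).

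In the RefSeq annotation of GRCh38.p14, DNHD1 lies on the plus strand of chromosome 11 at chr11:6497280-6572020. It spans 74.741 kb, has 2 listed transcripts, and overlaps 0 other listed genes. The values are per gene, so which transcript rose is not known. The sequence of the region around the RefSeq start of the gene is shown. It runs 5′ to 3′ on the plus strand at chr11:6497030-6497329, with 250 bases before the start and 50 from it onward.
DNHD1 promoter: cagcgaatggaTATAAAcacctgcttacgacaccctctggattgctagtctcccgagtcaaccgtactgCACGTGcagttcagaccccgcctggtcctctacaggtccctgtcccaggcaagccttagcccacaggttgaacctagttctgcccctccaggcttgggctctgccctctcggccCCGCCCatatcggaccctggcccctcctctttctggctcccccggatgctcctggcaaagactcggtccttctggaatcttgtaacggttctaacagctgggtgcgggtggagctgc
Capitals mark the motifs found among 6 searched on both strands. TATAAA, the TATA-box core, began at -239 relative to the start and was present in 11.5% of the 35116 promoters of the same length in the table. CACGTG, an E-box, began at -181 and was present in 7.26%. The GC box GGGCGG was found on the minus strand as CCGCCC at -67 and was present in 45.0%. There was no match to CCAAT (34.6% of promoters), to CTTTGA, the core of the TCF/LEF sites through which beta-catenin acts (12.9%), or to TGACGTCA (1.85%). None of the motifs found overlapped another, and a match is a description of letters, not a binding site.

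With SM08502, DNHD1 was high in every line. In Ishikawa the level was 5.61 and 7.83 CPM in the vehicle libraries and 27.3 and 29.6 CPM with SM08502, from 91 and 102 reads against 472 and 486 reads. This is a 4.23-fold difference of means and 1.94 on the log2(CPM + 1) scale. By size, that difference was at rank 4 of 17011 tested genes. Of the 3 larger differences, 2.08 and 2.05 belonged to a pair of clone-named transcripts that were not called and were each at 0 reads in a vehicle library. The other was called, so DNHD1 did not have the largest called rise in Ishikawa. Among genes with a mean log2(CPM + 1) of at least 1, the next below DNHD1 was LINC00176 at 1.89. In Ishikawa 6.5% of tested genes were called higher with SM08502, from which nothing is read for a gene chosen on that contrast.

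**Figure D1:**
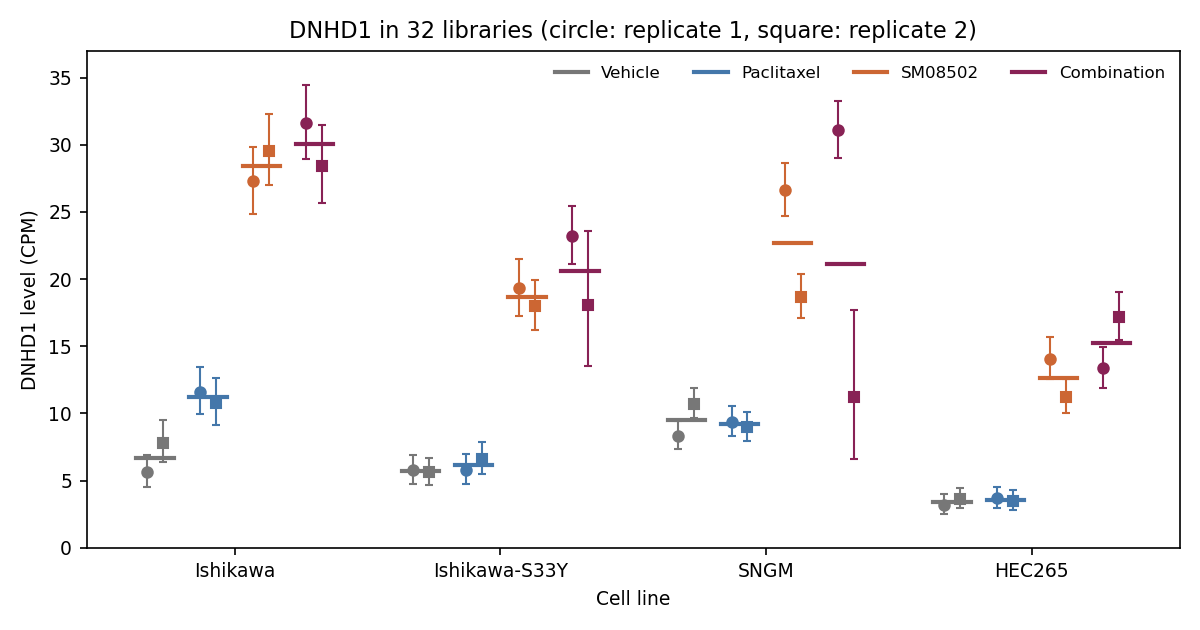
DNHD1 level in CPM (vertical axis) in each of the 32 libraries, by cell line and treatment. Circles and squares are replicates 1 and 2, error bars are exact 95% Poisson intervals of the reads (counting error only), and horizontal lines are group means; within each line the libraries with SM08502 lie above those without.

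The other lines were not used to choose the gene, and DNHD1 rose with SM08502 in each. In Ishikawa-S33Y it was 5.77 and 5.62 CPM with vehicle and 19.3 and 18.0 CPM with SM08502, a 3.28-fold difference of means. In HEC265 it was 3.20 and 3.63 CPM with vehicle and 14.1 and 11.2 CPM with SM08502, 3.70-fold. In SNGM it was 8.33 and 10.7 CPM with vehicle and 26.6 and 18.7 CPM with SM08502, 2.38-fold. Groups did not overlap in any of these lines, and the SM08502 replicates in SNGM were the most spread. With 2 libraries in each group, lack of overlap is only a description here and below. The share of all genes that showed it is not given. In bulk RNA, a change in the number of cells of a kind and a change in RNA per cell cannot be told apart.

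By limma over all tested genes, the log2(CPM + 1) difference was 1.55 in Ishikawa-S33Y (SE 0.28, adjusted p 2.87e-04), 1.62 in HEC265 (SE 0.28, adjusted p 4.08e-04) and 1.16 in SNGM (SE 0.28, adjusted p 0.0114). The SE is the same in each line because a shared spread was estimated over all 16 groups. DNHD1 group SDs on that scale ran from 0.02 (Ishikawa-S33Y with vehicle) to 0.99 (SNGM with the combination, which includes the shallow library). The share of all tested genes called higher was 18.5% in Ishikawa-S33Y, 9.27% in HEC265 and 3.8% in SNGM. Among all 17011 genes DNHD1 was at rank 37, 16 and 50 by size of rise in Ishikawa-S33Y, HEC265 and SNGM. It was 1 of 248 genes (1.46%) called higher in all of these lines, and its mean difference of 1.44 was at rank 7 among them. The rise in SNGM depended on single libraries: adjusted p was 0.126 without vehicle replicate 1, 0.179 without SM08502 replicate 1 and 0.321 when only SNGM samples were fitted, over a range from 1.38e-04 to 0.321 for the alternatives run.

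The rise did not differ detectably between these lines. The log2 rise in Ishikawa-S33Y minus that in SNGM was 0.40 (95% interval -0.42 to 1.22, adjusted p 0.577). HEC265 minus SNGM was 0.47 (-0.35 to 1.28, adjusted p 0.694), and Ishikawa-S33Y minus HEC265 was -0.07 (-0.89 to 0.75, adjusted p 0.963). The share of all tested genes whose effect differed either way was 9.83%, 2.03% and 5.66% for these pairs in turn. The intervals are wide, so they do not show that the lines respond alike.

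Adding SM08502 to paclitaxel gave the one Ishikawa comparison whose libraries did not choose the gene. DNHD1 was 11.6 and 10.8 CPM with paclitaxel and 31.6 and 28.4 CPM with the combination, 2.68-fold. The groups did not overlap. The log2 difference was 1.34 (limma, SE 0.28, adjusted p 0.00281), where 8.3% of genes were called higher. With any 1 of the 4 libraries left out it was still called (adjusted p 0.00794 to 0.0363), but with Ishikawa samples alone it was not (adjusted p 0.0659, the highest of the alternatives, whose lowest was 2.79e-04).

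DNHD1 also rose with the combination over paclitaxel in the CTNNB1-mutated lines. In Ishikawa-S33Y it was 5.79 and 6.60 CPM with paclitaxel and 23.2 and 18.1 CPM with the combination, with a log2 difference of 1.58 (limma, SE 0.28, adjusted p 1.34e-04, 22.1% of genes called higher). In HEC265 it was 3.69 and 3.51 CPM against 13.4 and 17.2 CPM, with a log2 difference of 1.81 (SE 0.28, adjusted p 1.26e-04, 8.39% called higher), and it was the gene at rank 7 by rise. The groups did not overlap in either line.

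In SNGM the same comparison rested on 1 library. DNHD1 was 9.40 and 8.99 CPM with paclitaxel and 31.1 and 11.2 CPM with the combination, and the log2 difference was 0.96 (limma, SE 0.28, adjusted p 0.0232, 9.28% of genes called higher). The 11.2 CPM came from 18 reads in the shallow library, with an exact 95% Poisson interval of 6.64 to 17.7 CPM that covers counting error only. Without that library the difference was 1.65 (adjusted p 7.36e-05), and without combination replicate 1 it was 0.26 (adjusted p 0.370). The call was also lost without paclitaxel replicate 1 or 2 (adjusted p from 0.0878 to 0.126) and with SNGM samples alone (0.307), over a range from 7.36e-05 to 0.370 for the alternatives run.

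The gain from adding SM08502 to paclitaxel did not differ detectably between Ishikawa and the mutated lines. Ishikawa minus Ishikawa-S33Y was -0.24 on the log2 scale (95% interval -1.05 to 0.58, adjusted p 0.766). Ishikawa minus HEC265 was -0.47 (-1.29 to 0.35, adjusted p 0.638). Ishikawa minus SNGM was 0.39 (-0.43 to 1.20, adjusted p 0.615), and without SNGM combination replicate 1 it was 1.08. SNGM then had only its shallow combination library, with 18 DNHD1 reads, so no line difference is read from that value. The share of all tested genes whose gain differed either way was 9.31%, 2.35% and 3.37% for these pairs in turn.

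**Figure D2:**
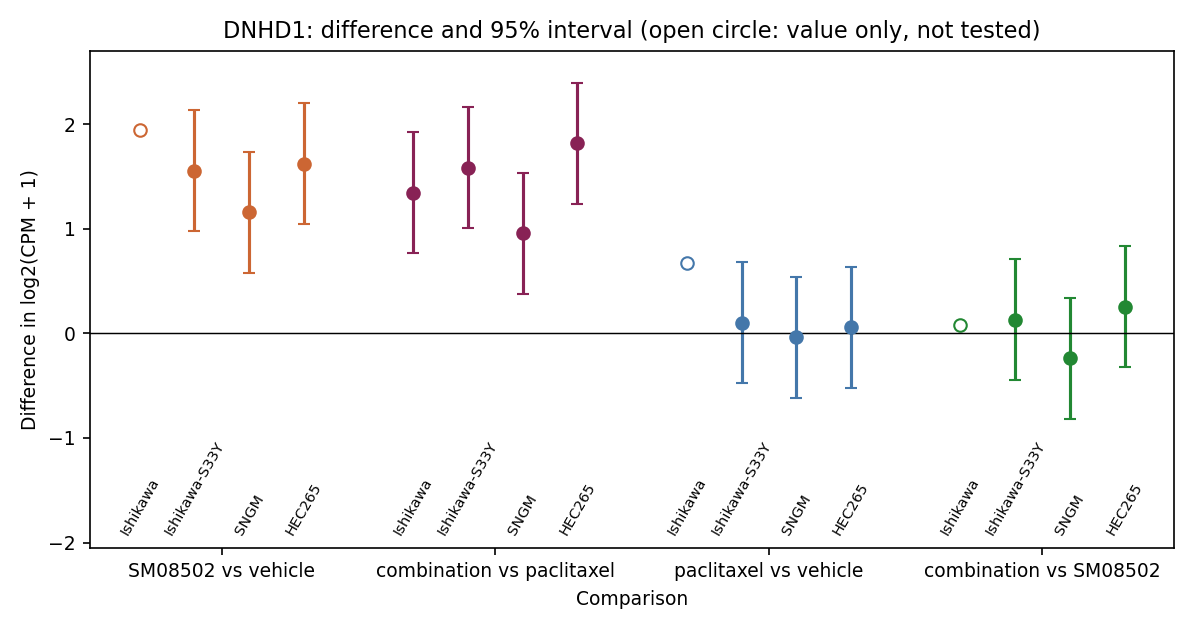
Difference in DNHD1 log2(CPM + 1) for 4 comparisons in each of 4 lines. Filled points are tested differences with 95% limma intervals and open circles are Ishikawa values that chose the gene or share its libraries; the intervals for SM08502 vs vehicle and for combination vs paclitaxel lie above 0, and those for paclitaxel vs vehicle and combination vs SM08502 include 0.

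Paclitaxel alone left DNHD1 near its vehicle level in the mutated lines. The log2 difference was 0.10 for Ishikawa-S33Y (95% interval -0.48 to 0.68), 0.06 for HEC265 (-0.52 to 0.64) and -0.04 for SNGM (-0.62 to 0.54), each with a limma adjusted p of 1. Paclitaxel called few genes of any kind: 0% of tested genes in Ishikawa-S33Y, 0.00588% in HEC265, 0.0118% in Ishikawa and 0.0176% in SNGM. In Ishikawa both paclitaxel libraries, 11.6 and 10.8 CPM, lay above both vehicle libraries, 5.61 and 7.83 CPM. This 1.67-fold difference of means (0.68 on the log2 scale) shares the vehicle libraries that chose the gene and was not tested.

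The combination was close to SM08502 alone. The log2 difference, combination minus SM08502, was 0.13 in Ishikawa-S33Y (95% interval -0.45 to 0.71, limma adjusted p 0.917), 0.25 in HEC265 (-0.33 to 0.83, adjusted p 1) and -0.24 in SNGM (-0.82 to 0.34, adjusted p 0.730). In SNGM it was -0.93 without combination replicate 1, which left only the shallow library, and 0.46 without that shallow library, replicate 2. The share of all tested genes called either way was 0.129% in Ishikawa-S33Y, 0.00588% in HEC265 and 0.253% in SNGM. In Ishikawa the value was 0.08, with no test, where 0% of genes were called. Against vehicle the combination stood 4.47-fold higher in Ishikawa, 3.63-fold in Ishikawa-S33Y, 2.22-fold in SNGM and 4.47-fold in HEC265. These folds share control libraries with the comparisons above.

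Ordered by group mean, the 8 groups with SM08502 held the highest 8 places. Ishikawa with the combination was first at 30.03 ± 2.25 CPM (SD, n = 2) and Ishikawa with SM08502 next at 28.4 ± 1.60. These neighbours in the order overlapped. SNGM with SM08502 (22.7 ± 5.61), SNGM with the combination (21.1 ± 14.1), Ishikawa-S33Y with the combination (20.6 ± 3.66) and Ishikawa-S33Y with SM08502 (18.7 ± 0.909) also overlapped. HEC265 was lowest of the lines with the combination (15.3 ± 2.71) and with SM08502 (12.7 ± 1.99). Among groups without SM08502, Ishikawa with paclitaxel was highest (11.2 ± 0.578), followed by SNGM with vehicle (9.53 ± 1.69) and with paclitaxel (9.19 ± 0.288). Ishikawa with vehicle (6.72 ± 1.57), Ishikawa-S33Y with paclitaxel (6.19 ± 0.578) and Ishikawa-S33Y with vehicle (5.69 ± 0.105) came next. HEC265 with paclitaxel (3.60 ± 0.128) and with vehicle (3.42 ± 0.300) was lowest. Across lines the classes overlapped slightly, the lowest library with SM08502 at 11.2 CPM and the highest without it at 11.6 CPM.

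On vehicle, DNHD1 was lower in HEC265 than in SNGM, by a log2 difference of -1.25 (95% interval -1.82 to -0.67, limma adjusted p 6.70e-04). In that comparison 28.9% of tested genes were called lower, so line differences were common. Ishikawa-S33Y minus SNGM was -0.64 (adjusted p 0.0503, 60.8% of genes called either way) and Ishikawa-S33Y minus HEC265 was 0.60 (adjusted p 0.0699, 58% called), neither called. With paclitaxel, Ishikawa-S33Y was below Ishikawa by -0.76 (adjusted p 0.0280, where 27.1% were called lower). That call was lost with any 1 of the 4 libraries left out (adjusted p 0.0625 to 0.135) and without the filter on low values (0.0584).

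The genes beside DNHD1 did not follow it uniformly. Of 8 neighbours, 7 were tested and HPX was too low. In Ishikawa 0 were higher and 1 was lower with SM08502. Ishikawa-S33Y had 2 higher and 1 lower, SNGM had 2 and 1, and HEC265 had 3 and 1. Over all tested genes the shares called lower were 8.68%, 10.6%, 4.06% and 5.39% in the order Ishikawa, Ishikawa-S33Y, SNGM, HEC265, beside the shares called higher given above. RRP8, a ribosomal RNA methyltransferase and the next gene downstream, rose in the mutated lines by 1.01 (limma adjusted p 4.03e-05), 0.50 (0.0398) and 0.94 (1.88e-04) in the order Ishikawa-S33Y, SNGM, HEC265, and had 0.35 in Ishikawa (0.121). In HEC265 RRP8 was 18.7 and 18.3 CPM with vehicle and 37.1 and 35.7 CPM with SM08502. ARFIP2, an ARF-binding protein, rose by 0.64 (4.43e-04), 0.44 (0.0251) and 0.49 (0.00771) in the same order, with 0.35 in Ishikawa (0.0546).

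TIMM10B, the nearest gene upstream and part of mitochondrial protein import, went the other way. It lies on the same strand, with 12.6 kb between it and DNHD1. With SM08502 it fell in all 4 lines, with log2 differences of -0.56 (limma adjusted p 0.00396), -0.37 (0.0270), -0.41 (0.0412) and -0.56 (0.00317) in the order Ishikawa, Ishikawa-S33Y, SNGM, HEC265. For the combination over paclitaxel TIMM10B was called lower in Ishikawa (-0.45, 0.0168) and HEC265 (-0.41, 0.0260), not in Ishikawa-S33Y (-0.19, 0.241) or SNGM (-0.23, 0.214). With SM08502, ILK, the integrin-linked kinase, was called only in HEC265, at 0.74 (2.71e-04). TRIM3, a ubiquitin ligase, TAF10, a subunit of TFIID, and TPP1, a lysosomal peptidase, were called in none of the lines with SM08502. For the combination over paclitaxel, TAF10 was called lower in Ishikawa-S33Y (-0.46, 0.0142). ILK was then lower in SNGM (-0.39, 0.0321) and higher in HEC265 (0.66, 6.65e-04), and RRP8 was not called in SNGM (0.40, 0.0736). With SM08502 against vehicle, every tested neighbour had a smaller rise than DNHD1 in each line, as a description without a test of the difference. In Ishikawa DNHD1 was chosen for its rise, so nothing is read from that line.

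**Figure D3:**
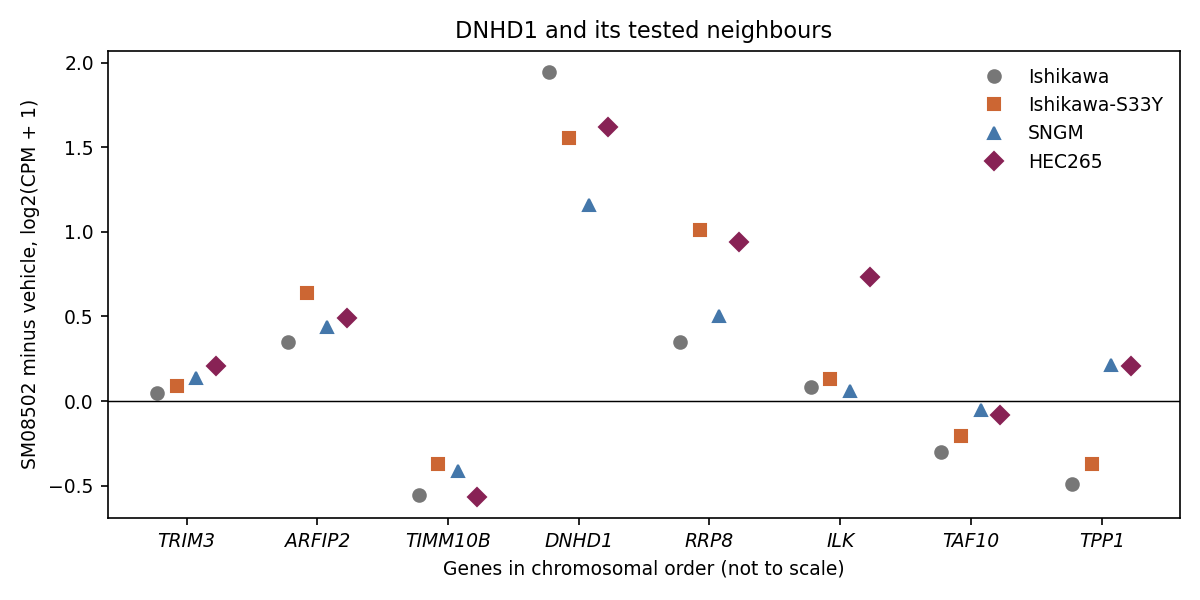
Difference in log2(CPM + 1), SM08502 minus vehicle (vertical axis), for DNHD1 and its 7 tested neighbours in chromosomal order, not to scale. Each point is 1 line. DNHD1 lies above every neighbour in each line and TIMM10B lies below 0. The DNHD1 value in Ishikawa chose the gene and was not tested.

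Other dynein heavy chains were mostly not called. Of 15 listed heavy chains, 14 were tested. Several were low, with medians over the libraries of 0.44 CPM for DNAH8, 1.76 for DNAH12, 2.12 for DNAH3, 2.27 for DNAH17 and 2.38 for DNAH2. At such levels log2(CPM + 1) understates fold changes, so lack of a call says little. In HEC265 DNAH17 was 0.935 and 1.39 CPM with vehicle and 2.77 and 2.41 CPM with SM08502, and was not called (0.74, limma adjusted p 0.0954). With SM08502, Ishikawa and Ishikawa-S33Y each had 2 higher and 0 lower, SNGM had 0 higher and 1 lower, and HEC265 had 0 of either. For all tested genes, 6.5%, 18.5%, 3.8% and 9.27% were called higher and 8.68%, 10.6%, 4.06% and 5.39% lower in the order Ishikawa, Ishikawa-S33Y, SNGM, HEC265. Their median log2 difference was 0.37, -0.00, 0.06 and 0.15 in the order Ishikawa, Ishikawa-S33Y, SNGM, HEC265, beside 0.00, 0.11, 0.0 and 0.07 over all tested genes. The heavy chains named here other than DYNC1H1 and DYNC2H1 were chosen after their values were seen. DNAH10, an axonemal inner-arm chain, rose by 1.30 in Ishikawa (limma adjusted p 3.32e-04) and 0.90 in Ishikawa-S33Y (0.00300), and had 0.53 in SNGM (0.146) and 0.48 in HEC265 (0.149). In Ishikawa DNAH10 was 5.98 and 6.60 CPM with vehicle and 15.8 and 18.1 CPM with SM08502.

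DYNC1H1, the heavy chain of cytoplasmic dynein 1, was called in none of the lines, with differences of -0.24, -0.17, 0.14 and -0.32. Its Ishikawa paclitaxel replicates were far apart, at 394 and 160 CPM. DYNC2H1, the motor of intraflagellar transport, fell in SNGM by 0.91 (limma adjusted p 0.0206). It was not called in Ishikawa (0.34, 0.373), Ishikawa-S33Y (-0.63, 0.0543) or HEC265, where it was only 0.31 and 0.15 CPM with vehicle. For the combination over paclitaxel it was called lower in Ishikawa-S33Y (-0.85, 0.00780) and SNGM (-0.88, 0.0165), not in Ishikawa (0.33) or HEC265 (0.31). With SM08502, DNAH12 rose in Ishikawa (0.99, 0.0126) and DNAH14 in Ishikawa-S33Y (0.59, 0.0457). Of DNHD1 and these chains, only DNHD1 was called higher in each of Ishikawa-S33Y, SNGM and HEC265. Over all tested genes 1.46% were, so the lack of such a call among the other chains is near that share. DNHD1 itself was chosen for a rise with the same drug in Ishikawa. For the combination over paclitaxel, Ishikawa had 2 heavy chains higher and 0 lower, Ishikawa-S33Y had 2 and 2, SNGM had 0 and 1, and HEC265 had 1 and 0. Without Ishikawa paclitaxel replicate 2, 5 were called in Ishikawa, and with Ishikawa samples alone 0 were. The shares of all tested genes called lower there were 6.14%, 17.4%, 6.6% and 6.53% in the order Ishikawa, Ishikawa-S33Y, SNGM, HEC265. Paclitaxel alone called 0 heavy chains in any line.

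**Figure D4:**
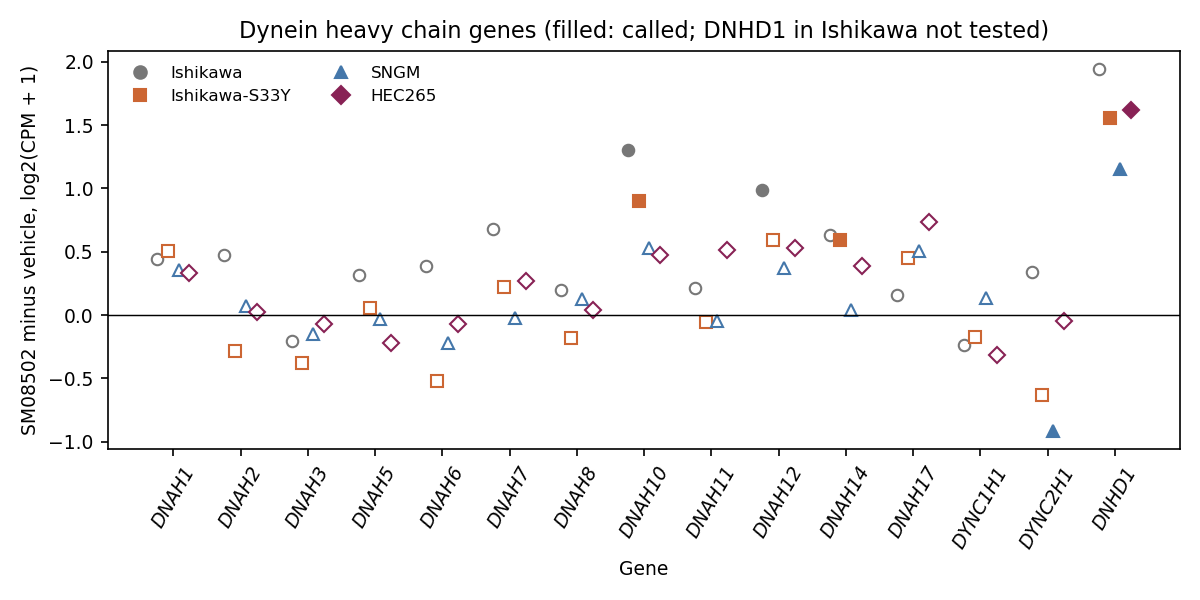
Difference in log2(CPM + 1), SM08502 minus vehicle (vertical axis), for DNHD1 and the 14 tested dynein heavy chains. Marker shape and color show the line and filled markers have a limma adjusted p under 0.05; DNHD1 is called in Ishikawa-S33Y, SNGM and HEC265, and its Ishikawa value was not tested.

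Of 33 cytoplasmic dynein and dynactin genes, the cargo motor and its activating complex, 32 were tested. With SM08502, Ishikawa had 2 higher and 3 lower, Ishikawa-S33Y had 10 and 7, SNGM had 3 and 1, and HEC265 had 4 and 0, with medians of 0.06, 0.15, 0.03 and 0.05. The share called higher over all tested genes was 6.5%, 18.5%, 3.8% and 9.27% in the same order, the share called lower was 8.68%, 10.6%, 4.06% and 5.39%, and the medians were 0.00, 0.11, 0.0 and 0.07. ACTR1B, the actin-related protein of the dynactin filament, rose in all 4 lines, by 0.76, 0.73, 0.93 and 0.39 (limma adjusted p 1.96e-04, 9.82e-05, 3.44e-05 and 0.0260). DCTN4, a dynactin pointed-end subunit, also rose in all 4, by 0.28, 0.60, 0.48 and 0.41 (0.0420, 6.67e-05, 0.00203 and 0.00408). DYNLRB1, a dynein light chain, rose by 0.31, 0.43 and 0.34 in the mutated lines, again in that order (0.0225, 0.00736 and 0.0215), and had 0.09 in Ishikawa (0.581). For the combination over paclitaxel DYNLRB1 was called higher in Ishikawa (0.43, 0.00611), SNGM (0.30, 0.0402) and HEC265 (0.32, 0.0306), not in Ishikawa-S33Y (0.20, 0.112). With SM08502 against vehicle, DNHD1 had a larger difference than each of these genes in every line, but in Ishikawa DNHD1 was chosen for its rise, so nothing is read from that line.

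Of 40 axonemal and ciliated-cell genes, 37 were tested. With SM08502, Ishikawa had 2 higher and 5 lower, Ishikawa-S33Y had 5 and 10, SNGM had 2 and 0, and HEC265 had 1 and 3, with medians of 0.07, -0.03, 0.03 and 0.08. Over all tested genes the medians were 0.00, 0.11, 0.0 and 0.07, with 6.5%, 18.5%, 3.8% and 9.27% called higher and 8.68%, 10.6%, 4.06% and 5.39% called lower. FOXJ1, RFX3 and DNAAF5 had the largest mean change among the listed genes called in at least 2 of the mutated lines, and other regulators on the list, RFX2 and MCIDAS, were called in none of these lines and CCNO in 1, with a positive mean change of 0.42. FOXJ1, the transcription factor that switches on motile ciliogenesis, fell by 1.64 in Ishikawa (limma adjusted p 2.15e-05), by 1.92 in Ishikawa-S33Y (9.86e-07) and by 2.10 in HEC265 (8.08e-07), and had 0.17 in SNGM (0.740). In HEC265 FOXJ1 was 14.8 and 13.0 CPM with vehicle and 2.50 and 2.45 CPM with SM08502, while DNHD1 went from 3.20 and 3.63 to 14.1 and 11.2 CPM. RFX3, another ciliogenesis factor, fell by 0.75, 1.85 and 0.59 in Ishikawa, Ishikawa-S33Y and HEC265, and DNAAF5, a dynein assembly factor, fell by 0.60, 0.63 and 0.47 there.

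The summed level of 7 ciliated-cell markers was 49.7 to 61.1 CPM without and 26.9 to 30.8 with SM08502 in Ishikawa, 159.6 to 189.7 CPM without and 26.1 to 60 with SM08502 in Ishikawa-S33Y, 27.1 to 29.7 CPM without and 24.3 to 36.7 with SM08502 in SNGM and 14.7 to 17.9 CPM without and 5.84 to 7.37 with SM08502 in HEC265. Much of that sum was FOXJ1. The other 6 markers summed to 27.2 to 32.7 CPM without and 17.8 to 22.4 with SM08502 in Ishikawa and to 44.8 to 50.8 against 11.4 to 21.6 in Ishikawa-S33Y. They overlapped in SNGM (6.77 to 8.59 against 3.11 to 8.46) and were higher with SM08502 in HEC265 (2.20 to 3.07 against 3.39 to 4.87).

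Other marker sums also differed between libraries without and with SM08502, where DNHD1 was high. The 5 epithelial markers did not overlap in Ishikawa-S33Y (2602 to 2970 against 1174 to 1629 CPM) or HEC265 (2462 to 2649 against 2038 to 2264), and overlapped in Ishikawa and SNGM. The 5 Müllerian and endometrial markers were lower without overlap in Ishikawa (392 to 600 against 271 to 391), Ishikawa-S33Y (808 to 883 against 451 to 577) and HEC265 (225 to 241 against 194 to 206), and overlapped in SNGM. The sum of the 4 stromal markers was lower without overlap in Ishikawa-S33Y (1051 to 1158 against 707 to 892), SNGM (3.93 to 4.89 against 2.35 to 3.73) and HEC265 (5.41 to 6.85 against 3.08 to 4.39), and overlapped in Ishikawa. In Ishikawa-S33Y that sum was nearly all COL1A1 (median 971 CPM), with medians of 0.53 for DCN, 0.05 for LUM and 0.0 for PDGFRB. Sums of 3 leukocyte and of 3 endothelial markers overlapped in every line, at 10.6 CPM or less. The part of these markers in the DNHD1 result was not tested.

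The list counts above depended on the samples fitted. With Ishikawa samples alone, SM08502 called 1 heavy chain, 0 dynein and dynactin genes and 0 axonemal genes, and without SM08502 replicate 2 it called 1, 1 and 3.

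The genes whose levels followed DNHD1 most closely were found by Pearson r over the 32 libraries after subtracting each line's mean, among 14408 genes. Among the 8 nearest, SENP5, a SUMO protease, had r = 0.95, and USP30, a mitochondrial deubiquitinase, IP6K2, an inositol phosphate kinase, ADCY10, the soluble adenylyl cyclase of sperm, ZNF782 and FAM120B each had 0.94. The libraries share lines, treatments and depth differences, so r is a description only. Without centring, 2 of the 8 nearest genes were shared, and with Spearman's rho 0 of 8. USP30 differed by 0.70, 1.10, 0.60 and 0.93 with SM08502 in the order Ishikawa, Ishikawa-S33Y, SNGM, HEC265, each smaller than DNHD1 in the same line. The Ishikawa difference of DNHD1 is the one that chose it.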

How the data were processed

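RNA from 32 samples was sequenced after ribosomal RNA depletion, per the labels' protocols. The submitters' processing notes name bcl2fastq, kallisto, STAR and GRCh38 with no roles. The counting program, annotation and strand are not given in the sources used here. Splicing tables were not analysed here. The authors deposited log10(CPM + 1), where CPM is reads per 1000000 counted. The unit was checked on the values: CPM sums to 1000000 in each library, 4366 genes are at 0 in every library, and 100% of values came out as whole reads within 0.05 of a read. Those reads gave the depth (median 20.6 M, where M is 1000000 reads).

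Values were tested as log2(CPM + 1), on which fold changes of low genes are understated. Genes above 1 CPM in at least 2 samples were kept (17011). One limma model (limma 3.58.1, R 4.3.3) with a mean for each of 16 groups and an intensity trend was fitted to all samples, with 16 residual and 4.90 prior degrees of freedom. Tests were two-sided, adjusted over all tested genes by Benjamini-Hochberg and called under 0.05. The procedure was tested on simulated data. Same-numbered samples were not treated as pairs.

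DNHD1, the gene lists and the tests were chosen with earlier results of these data known. Named list genes were the 3 with the largest mean change among those called in at least 2 mutated lines, plus DYNC1H1 and DYNC2H1. Neighbours were 4 genes on each side, and 8 genes were ranked by likeness. Results for some genes that met the rules are not reported here. Promoters came from RefSeq (GRCh38.p14). Alternatives were other filters, a pseudocount of 0.1, median and quantile scaling, no trend, voom on recovered reads, a length-score covariate, fewer samples and a replicate block.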

Additional observations from a re-analysis of the deposited data

How the results depend on the processing

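For the tested results, an alternative counted as the same when direction and call were kept. The untested Ishikawa comparisons have no call, so it counted when direction was kept and the shift was below the pooled SD of the replicates. Of 388 alternative values over 26 results, 350 were the same, and 12 results were so throughout. For the other results, the cause was not tested unless fewer samples or genes were fitted. The rises with SM08502 in Ishikawa-S33Y and HEC265, and with the combination over paclitaxel in the same lines, kept their calls under every alternative run. With the compared lines only, 3 calls were lost: SM08502 in SNGM (1.16, adjusted p 0.321) and the combination over paclitaxel in Ishikawa (1.34, 0.0659) and in SNGM (0.96, 0.307). Without the filter on low values, the paclitaxel level of Ishikawa-S33Y minus Ishikawa was -0.76 (0.0584). The vehicle level of Ishikawa-S33Y minus SNGM became called with a stricter filter (-0.64, 0.0480), a pseudocount of 0.1 (-0.72, 0.0444), median re-centring (-0.76, 0.0130), quantile normalization (-1.11, 7.76e-04) and voom (-0.73, 0.0145). Ishikawa-S33Y minus HEC265 on vehicle became called with that pseudocount (0.72, 0.0453), the length score (0.80, 0.0329) and the compared lines only (0.60, 0.00258), and reversed with quantile normalization (-0.32, 0.285). Quantile normalization also reversed the SM08502 effect of Ishikawa-S33Y minus HEC265 (0.69, 0.291) and the combination effect of Ishikawa minus HEC265 (0.14, 0.901), and gave 2.19 for SM08502 in Ishikawa. Voom on recovered reads reversed the combination minus SM08502 in SNGM (0.31, 0.759) and the combination effect of Ishikawa minus SNGM (-0.17, 0.826).

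Replicate differences correlated between treatments with r from -0.54 to 0.85 in Ishikawa, -0.06 to 0.13 in Ishikawa-S33Y, -0.59 to 0.78 in SNGM and -0.12 to 0.26 in HEC265. The signs were mixed in every line, so no uniform pairing by number was seen. Whether same-numbered samples were handled together cannot be told from these values. With a replicate block the vehicle level of Ishikawa-S33Y minus SNGM was called (-0.64, adjusted p 0.04999), and no other call changed.

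Leaving out 1 replicate at a time gave 0.91 to 1.40 for SM08502 in SNGM, 0.26 to 1.65 for the combination over paclitaxel there, and -0.93 to 0.46 for the combination minus SM08502 there. It gave -0.31 to 1.08 for the combination effect of Ishikawa minus SNGM, -0.85 to -0.68 for the paclitaxel level of Ishikawa-S33Y minus Ishikawa, and -0.22 to 0.082 for the SM08502 effect of Ishikawa-S33Y minus HEC265. It gave -0.045 to 0.30 for the combination minus SM08502 in Ishikawa-S33Y, -0.20 to 0.13 for paclitaxel in SNGM and -0.010 to 0.13 for paclitaxel in HEC265. A lone sample was then assumed to vary like the other groups. In the shallow SNGM library 3 reads equal 1.87 CPM. Of the listed genes called with SM08502, heavy chains ranged from 1 to 4 over the alternatives in Ishikawa (2 as reported) and in Ishikawa-S33Y (2), from 0 to 2 in SNGM (1) and from 0 to 4 in HEC265 (0). Dynein and dynactin genes ranged from 0 to 13 (5), 14 to 21 (17), 0 to 11 (4) and 2 to 15 (4), and axonemal genes from 0 to 11 (7), 10 to 18 (15), 1 to 5 (2) and 3 to 12 (4), in the same order of lines.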
